A study of Mesocricetus auratus with 38 samples.

Results

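Genes of iron handling and heme synthesis were followed in the liver of male Golden Syrian hamsters. The members were named by symbol, 10 genes in all, of which 6 (Tfrc, Tfr2, Fth1, Aco1, Alas1 and Fech) were measured here among 14631 gene symbols. The other 4, Hamp (hepcidin), Slc40a1 (the iron exporter ferroportin), Cp (the ferroxidase ceruloplasmin) and Ireb2 (iron regulatory protein of the second kind), are not analysed here. The Chow diet group (9 libraries) had 11% of its calories as fat for 12 weeks, whereas the HFD group (10 libraries) had 23% as fat, with cholesterol added, over the same time. The HFD + MI_D1 (9 libraries) and HFD + MI_D2 (10 libraries) animals ate that high-fat diet too, and a mixture of metabolic activators was added for their final 4 weeks. At the lower dose (MI_D1) the mixture held L-carnitine, N-acetylcysteine and nicotinamide riboside at 200 mg/kg apiece with betaine at 400 mg/kg, and at the higher dose (MI_D2) these were 400 and 800 mg/kg. Betaine was given in the drinking water and the rest by mouth. All hamsters were 22 weeks old by the labels and were killed after a daytime fast. The labels name no animals, so each library was taken as 1 animal, and p-values measure the spread between these libraries.

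The liver is the main store of iron in the body and the source of hepcidin, the hormone that makes cells degrade ferroportin and so lowers the release of iron into blood. Iron bound to transferrin enters cells through the receptor encoded by Tfrc, is held in ferritin, and is used in mitochondria to make iron-sulfur clusters and heme. Cytosolic aconitase, when it loses its iron-sulfur cluster, binds iron-responsive elements in mRNAs, including those of ferritin and the transferrin receptor.

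Total estimated counts per library were 4.08e+06 to 1.04e+07, and the lowest count of any member in any of the 38 libraries was 211, for Tfrc. All 6 members passed the filter on low counts, beside 9099 genes in all. A Chow diet library, called C105 after the number in its label, stood apart from the rest. Its score on the first principal component (27.5% of the variance of 500 genes) was 19.2. The other Chow diet libraries ran from -23.1 to -12.7, and the other 37 libraries of all groups from -23.1 to 12.3. The study filtered out 1 control library, so values are given without library C105 (8 Chow diet libraries) and then over all 38. All groups were fitted together. In comparisons without the Chow diet group, library C105 therefore enters only through the filter, the scaling and the shared estimate of spread. Library C105 had the highest Fth1 value of all 38 libraries, at 8518 CPM (counts scaled to the effective library size by TMM), where the other Chow diet libraries had 2526 to 4144. It also had the lowest Fech value, at 57.72 CPM against 88.6 to 127.5. Its Aco1 value of 539.8 CPM lay below the 624.5 to 830.3 of the other Chow diet libraries. Its Tfr2 value of 307.9 CPM lay above their 144.8 to 254.9. Its values of Alas1 (312.1 CPM against 358.1 to 1720) and Tfrc (56.39 CPM against 63.28 to 98) lay below theirs. Values of library C105, and those set against them here, were scaled over all 38 libraries. The CPM values of groups below were scaled over 37 libraries, so they differ slightly.

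The defining genes of hepatocytes were abundant, with a mean in the Chow diet group of 121040 TPM (transcript counts corrected for length and scaled to the library total) for Alb, which encodes albumin, and 14500 for Ttr, which encodes transthyretin. Of 8 red cell genes measured, 7 had a mean under 1 TPM in every group and 2 were at 0 in all libraries. The red cell gene of highest level was Gypc (glycophorin C), with a mean of 5.62 TPM in the Chow diet group and 7.05 TPM in the HFD group.

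The members differed widely in level, compared here in TPM. Fth1, the heavy chain of ferritin that oxidises iron for storage, had the highest level, with a mean of 4672 ± 614 TPM (SD, n = 37). Alas1, the first and rate-limiting enzyme of heme synthesis in liver, followed at 298 ± 134.1 TPM, and Aco1, cytosolic aconitase, had 148.8 ± 35.4 TPM. Tfr2, a second transferrin receptor that acts in hepatocytes in the sensing of iron, had 75.8 ± 16.8 TPM. Fech, ferrochelatase, which inserts iron into protoporphyrin as the last step of heme synthesis, had 39.4 ± 6.48 TPM. Tfrc, the receptor that takes up transferrin-bound iron in most cells, was lowest at 14.7 ± 3.0 TPM.

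Members also differed in how much they varied between animals on the same regimen. The SD of log2 CPM within groups was 0.642 for Alas1, larger than for 95.7% of tested genes, and its highest library exceeded its lowest 9.37-fold in TPM. That of Fech was 0.169, larger than for only 13.1% of tested genes, where the median gene had 0.283. Fth1 and Aco1 had SDs of 0.206 and 0.209, and Tfr2 and Tfrc of 0.298 and 0.305. A given fold change was therefore resolved less well for Alas1 than for Fech.

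**Figure D1:**
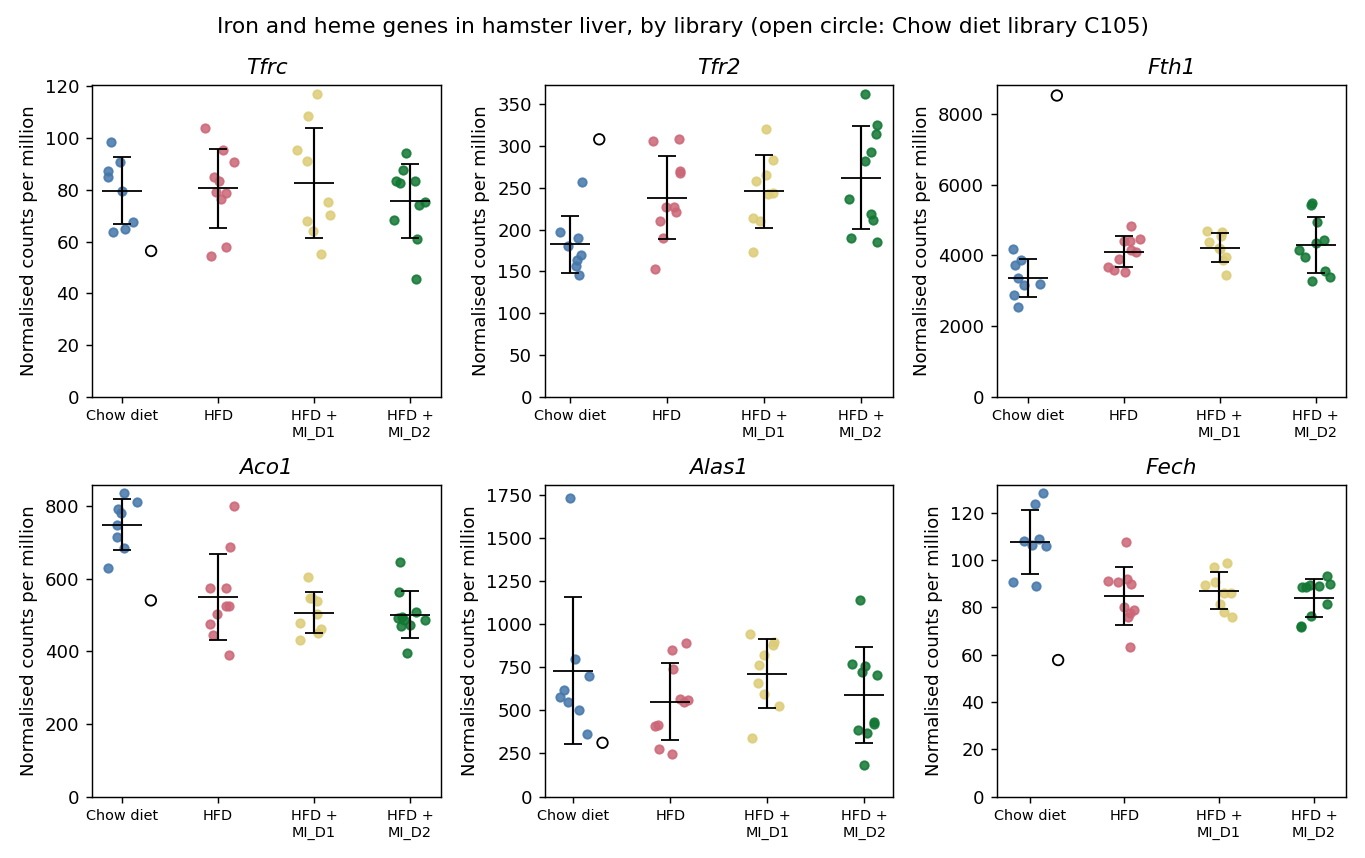
Level in CPM (linear axis from 0) of the 6 measured members in each library of the 4 groups. Black bars mark the mean of a group and the SD about it. The open circle is Chow diet library C105, in neither the mean nor the SD and scaled over all 38 libraries, where the other points were scaled over 37. Aco1 and Fech lie lower in the 3 high-fat groups than in the Chow diet group, and library C105 stands at 8518 for Fth1.

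The first question was how the high-fat diet itself changed these genes. In HFD livers, Aco1 and Fech fell and Tfr2 and Fth1 rose relative to Chow diet livers, while Tfrc and Alas1 did not pass the test. Thus 4 of 6 members were called by edgeR's quasi-likelihood test at an adjusted p under 0.1, where 36.2% of all tested genes were called in this comparison (18.1% higher and 18.1% lower). With library C105 included, 2 of 6 members (Aco1 and Fech) were called, beside 15.6% of all tested genes. Since RNA of the whole liver was measured, fewer cells of a type and less RNA per cell cannot be told apart.

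Tfrc ranged from 63.69 to 98.66 CPM in the Chow diet group (median 82.38, n = 8) and from 54.37 to 103.9 CPM in the HFD group (median 81.4, n = 10). The ranges overlapped almost fully. The log2 fold change was 0.02, with a 95% interval of -0.26 to 0.29 and an adjusted p of 0.947 in edgeR. Changes within that interval were not excluded by these data. For Tfr2 the Chow diet livers had 145.7 to 256.4 CPM (median 174.8) and the HFD livers 153.3 to 308.8 CPM (median 227.2). The groups overlapped, with 9 of 10 HFD libraries above the Chow diet median and 4 above each of these 8 Chow diet libraries. Scaled over all 38 libraries, library C105 (307.9 CPM) lay just above the highest HFD library (307.1 CPM). The log2 fold change of Tfr2 was 0.38 ± 0.14 (SE), an increase of 30.5%, with an adjusted p of 0.0309. It was 0.28 over all 38 libraries, with an adjusted p of 0.217, which no longer passed.

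Fth1 had 2540 to 4171 CPM in Chow diet livers (median 3276) and 3526 to 4840 CPM in HFD livers (median 4117). All 10 HFD libraries lay above the Chow diet median, and 4 lay above each of the 8 Chow diet libraries, whereas library C105 (8518 CPM) lay above all 10. Fth1 rose by a log2 fold change of 0.29 ± 0.10 (SE), an increase of 22.0%, with an adjusted p of 0.0248 in edgeR. This call did not hold over all 38 libraries, where Fth1 had a log2 fold change of 0.06 and an adjusted p of 0.832. Fth1 is a short transcript, at 0.41 of the length of the median gene, and the rank correlation of a library's deviations with gene length was 0.122 to 0.344 in the 8 Chow diet libraries, -0.203 to 0.175 in HFD and -0.356 in library C105. With each library's length trend removed, Fth1 had a log2 fold change of 0.18 and an adjusted p of 0.176.

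Aco1 had 628.1 to 835.9 CPM in Chow diet livers (median 763) and 388.9 to 798.9 CPM in HFD livers (median 523.5). Of the 10 HFD libraries, 8 lay below each of the 8 Chow diet libraries and 1 lay above their median. Library C105 (539.8 CPM) lay within the HFD range. The log2 fold change of Aco1 was -0.45 ± 0.10 (SE), with an adjusted p of 0.000998 in edgeR, and the level fell by 26.7%. Aco1 also passed over all 38 libraries (-0.40, adjusted p = 0.00953) and with the length trend removed (-0.38, adjusted p = 0.00396).

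Alas1 had 360.5 to 1731 CPM in Chow diet livers (median 599.2) and 247.1 to 891 CPM in HFD livers (median 555.7). A single Chow diet library, C107, supplied the value of 1731, and the groups otherwise overlapped widely. This gave a log2 fold change of -0.41, with a 95% interval of -0.97 to 0.15 and an adjusted p of 0.281. Without library C107 Alas1 had a log2 fold change of -0.09 and an adjusted p of 0.829.

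Fech had 89.11 to 128.3 CPM in Chow diet livers (median 107.2) and 63.43 to 107.8 CPM in HFD livers (median 85.14). Of the 10 HFD libraries, 5 lay below each of the 8 Chow diet libraries, whereas library C105 (57.72 CPM) lay below all 10. The log2 fold change of Fech was -0.34 ± 0.08 (SE), with an adjusted p of 0.00183 in edgeR, and the level fell by 21.3%. Fech passed as well over all 38 libraries (-0.27, adjusted p = 0.0691) and with the length trend removed (-0.35, adjusted p = 0.00208).

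Markers of cell types moved with the diet as well. The summed level of 12 hepatocyte markers was 152000 to 175000 TPM in the 8 Chow diet libraries (median 168000) and 114000 to 149000 TPM in the 10 HFD libraries (median 133000), without overlap. Alb made up most of this sum, with a mean of 121040 TPM in Chow diet and 85579 TPM in HFD. Ttr, second in level, went the other way, from 14500 to 17700 TPM. Of these 12 genes, 6 fell and 2 rose, beside 36.2% of all tested genes called. Over all 38 libraries 4 fell and 0 rose, beside 15.6%. The summed level of 17 macrophage markers was 322 to 495 TPM (median 356) in Chow diet livers and 422 to 725 TPM (median 565) in HFD livers, led by Cd74 (the invariant chain of class II molecules, mean 124.8 and 177.8 TPM) and Marco (a scavenger receptor, mean 33.6 and 66.6 TPM). Of these 17 genes, 12 rose and none fell, and 5 rose over all 38 libraries, beside the same shares of all tested genes. Library C105 had 573 TPM of macrophage markers and 164000 TPM of hepatocyte markers. The part of these shifts in the changes of Aco1, Fech, Tfr2 and Fth1 was not tested.

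**Figure D2:**
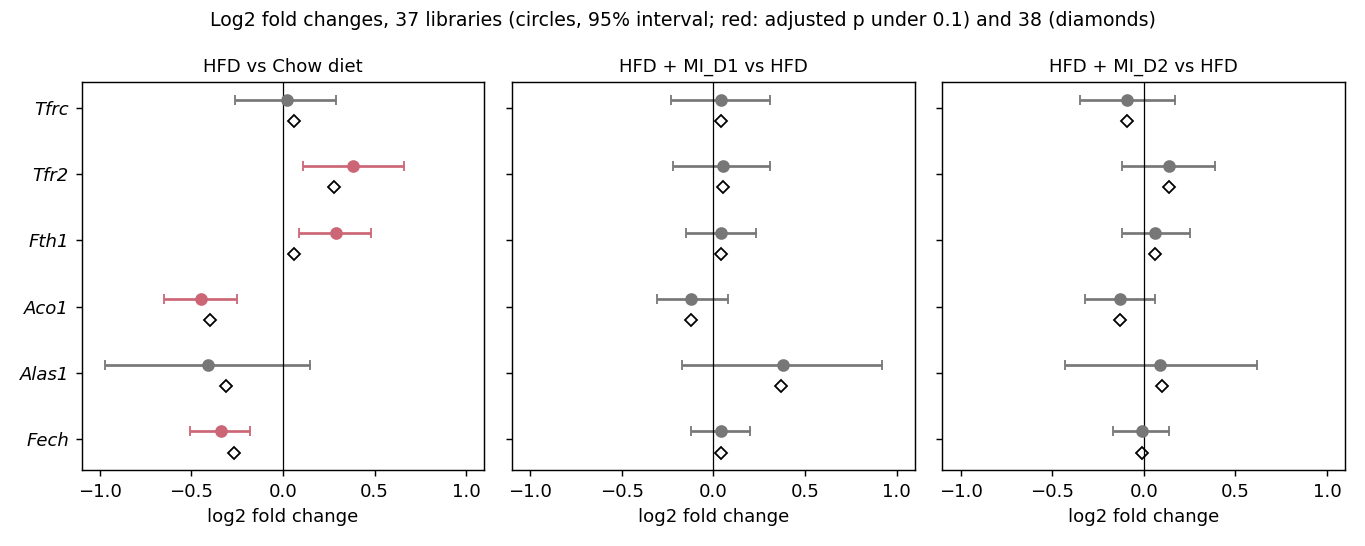
Log2 fold changes of the 6 members (linear axis) in the comparisons of HFD with Chow diet and of each dose with HFD. Circles and bars give the value and 95% interval over 37 libraries, red where the adjusted p was under 0.1, and open diamonds give the value over all 38 libraries. Red circles stand only in the comparison of HFD with Chow diet, and the diamond of Fth1 there lies at 0.06.

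The next question was whether the activators altered these genes in animals on the high-fat diet. No change in any of the 6 members was detected at either dose, and their levels stayed on the same side of Chow diet as in HFD for the 4 members that the diet had changed. At MI_D1, 0 of 6 members were called against HFD, beside 0.187% of all tested genes. At MI_D2, 0 of 6 were called, beside 5.63% of all tested genes (3.37% higher and 2.25% lower). At both doses 0 members reached an unadjusted p under 0.05 in edgeR, beside 844 (MI_D1) and 1692 (MI_D2) of 9099 tested genes. DESeq2 and limma called 0 members. Both comparisons use the same 10 HFD libraries, so their values are not independent.

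For the uptake receptors, Tfrc had 55.17 to 117.04 CPM at MI_D1 (median 75.34, n = 9) and 45.73 to 94.15 CPM at MI_D2 (median 78.98, n = 10). Against HFD, its log2 fold change was 0.04 at MI_D1 (95% interval -0.23 to 0.31) and -0.09 at MI_D2 (-0.35 to 0.17). Both groups overlapped HFD over most of its range. Tfr2 had 172.6 to 320.7 CPM at MI_D1 (median 244.1) and 184.8 to 362.1 CPM at MI_D2 (median 259.5). Tfr2 differed from HFD by a log2 fold change of 0.05 at MI_D1 (-0.22 to 0.31) and 0.14 at MI_D2 (-0.12 to 0.39), and 3 of 10 MI_D2 libraries lay above every HFD library.

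Ferritin and aconitase had similar levels at both doses. Fth1 had 3452 to 4681 CPM at MI_D1 (median 4213) and 3275 to 5468 CPM at MI_D2 (median 4241). The log2 fold change of Fth1 against HFD was 0.04 (-0.15 to 0.23) and 0.06 (-0.12 to 0.25). The spread of Fth1 was wider at MI_D2, with an SD of 792 CPM against 435 CPM in HFD, and MI_D2 libraries lay on both sides of the HFD range. Aco1 had 431.4 to 603.9 CPM at MI_D1 (median 501.3) and 394.7 to 644.5 CPM at MI_D2 (median 488.4). For Aco1 the log2 fold change was -0.12 at MI_D1 (-0.31 to 0.08) and -0.13 at MI_D2 (-0.32 to 0.06). All these libraries lay within the range of HFD.

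Of the heme enzymes, Alas1 had 342.5 to 944.4 CPM at MI_D1 (median 765.8) and 182.3 to 1139 CPM at MI_D2 (median 566.8). Its log2 fold change against HFD was 0.38 at MI_D1 (95% interval -0.17 to 0.92, adjusted p = 0.693) and 0.09 at MI_D2 (-0.43 to 0.62, adjusted p = 0.89). These intervals are the widest of the 6 members. Fech had 75.81 to 98.58 CPM at MI_D1 (median 85.97) and 71.81 to 93.25 CPM at MI_D2 (median 88.57). Its log2 fold change was 0.04 at MI_D1 (-0.12 to 0.20) and -0.01 at MI_D2 (-0.17 to 0.14), the narrowest intervals of the members.

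The 2 doses could be compared with each other directly. Of the 6 members, 0 were called between MI_D2 and MI_D1, beside 0% of all tested genes, where 271 of 9099 genes had an unadjusted p under 0.05 and DESeq2 and limma called 0. No member had an unadjusted p under 0.05. The log2 fold changes of MI_D2 against MI_D1 ran from -0.28 for Alas1 (95% interval -0.82 to 0.26) to 0.09 for Tfr2 (-0.17 to 0.35), with Tfrc at -0.13 (-0.40 to 0.13), Fech at -0.05 (-0.21 to 0.11), Aco1 at -0.02 (-0.21 to 0.18) and Fth1 at 0.03 (-0.16 to 0.21).

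Against the Chow diet group, the treated animals gave the same 4 members as HFD, with Aco1 and Fech lower and Tfr2 and Fth1 higher. These comparisons share the Chow diet libraries with that of HFD. At MI_D1, 4 of 6 members were called, beside 40.7% of all tested genes, and over all 38 libraries 1 of 6 (Aco1), beside 21.8%. At MI_D2, 4 of 6 were called, beside 47.4%, and over all 38 libraries 3 of 6 (Tfr2, Aco1 and Fech), beside 32.9%.

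Without library C105, Aco1 at MI_D1 did not overlap Chow diet, with 9 of 9 libraries below every remaining Chow diet library. Scaled over all 38 libraries, library C105 (539.8 CPM) lay within the ranges of MI_D1 (428.6 to 600.1 CPM) and MI_D2 (392.3 to 640.5 CPM). With library C105, both doses therefore overlapped Chow diet. The log2 fold change of Aco1 was -0.56 ± 0.10 (SE) at MI_D1 (adjusted p = 5.92e-05 in edgeR). It was -0.58 ± 0.10 at MI_D2 (adjusted p = 1.37e-05), where 9 of 10 libraries lay below every Chow diet library other than C105. With library C105 included, Aco1 had adjusted p-values of 0.000796 and 0.000194. Fech had log2 fold changes of -0.31 ± 0.08 at MI_D1 (adjusted p = 0.00455) and -0.36 ± 0.08 at MI_D2 (adjusted p = 0.00057). For Fech, 5 of 9 and 7 of 10 libraries lay below every Chow diet library other than C105. Library C105 (57.72 CPM) lay below all libraries of both doses. The adjusted p of Fech over all 38 libraries was 0.109 at MI_D1 and 0.0297 at MI_D2.

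Tfr2 had log2 fold changes against Chow diet of 0.43 ± 0.14 at MI_D1 (adjusted p = 0.0155 in edgeR) and 0.52 ± 0.14 at MI_D2 (adjusted p = 0.0022), and all 10 MI_D2 libraries lay above the Chow diet median. With library C105 these were 0.32 (adjusted p = 0.129) and 0.42 (adjusted p = 0.0294). Fth1 had log2 fold changes of 0.33 ± 0.10 (adjusted p = 0.0108) and 0.35 ± 0.10 (adjusted p = 0.00379). Neither call of Fth1 held over all 38 libraries (adjusted p = 0.695 and 0.559) or with the length trend removed (adjusted p = 0.129 and 0.111). Tfrc and Alas1 were not called at either dose. Tfrc had log2 fold changes of 0.06 (95% interval -0.23 to 0.34) and -0.08 (-0.35 to 0.20), and Alas1 of -0.03 (-0.61 to 0.54) and -0.31 (-0.87 to 0.25). Without library C107 the values of Alas1 were 0.28 (adjusted p = 0.455) and 0.00 (adjusted p = 0.995).

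Heme is made from glycine and succinyl-CoA in a chain of enzymes that opens with Alas1 and closes with Fech. Of this chain 7 enzymes, these members included, are described, and the set was formed after its values had been seen. In HFD against Chow diet, 1 of the 7 rose and 2 fell, beside 36.2% of all tested genes called. The other 4 had log2 fold changes of -0.41 to 0.23 without passing the test. The enzyme that rose was Alad, which joins aminolevulinate into porphobilinogen, from 158.7 ± 25.5 CPM (SD, n = 8) to 215.5 ± 29.8 CPM (SD, n = 10). Its log2 fold change was 0.44 ± 0.11 (SE), with an adjusted p of 0.00245 in edgeR, and over all 38 libraries 0.15 with an adjusted p of 0.614. Cpox, which makes protoporphyrinogen, fell beside Fech, from 34.13 ± 4.16 to 24.43 ± 5.58 CPM. Its log2 fold change was -0.49 ± 0.12 with an adjusted p of 0.0037, and over all 38 libraries -0.35 with an adjusted p of 0.21. Over all 38 libraries Fech alone of the 7 was called, beside 15.6% of all tested genes. Against HFD, 0 of the 7 were called at MI_D1 (log2 fold changes of -0.06 to 0.38) and 0 at MI_D2 (-0.01 to 0.35). Of all tested genes 0.187% and 5.63% were called there. Against Chow diet, 2 rose (Alad and Ppox) and 2 fell (Cpox and Fech) at each dose, beside 40.7% of all tested genes called at MI_D1 and 47.4% at MI_D2. Ppox, which makes protoporphyrin, had a log2 fold change of 0.33 ± 0.15 at MI_D1 (adjusted p = 0.0911) and 0.59 ± 0.15 at MI_D2 (adjusted p = 0.00157). With library C105 included, 0 of the 7 were called at MI_D1, beside 21.8% of all tested genes. At MI_D2 2 were called, Ppox (adjusted p = 0.028) and Fech (adjusted p = 0.0297), beside 32.9%.

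**Figure D3:**
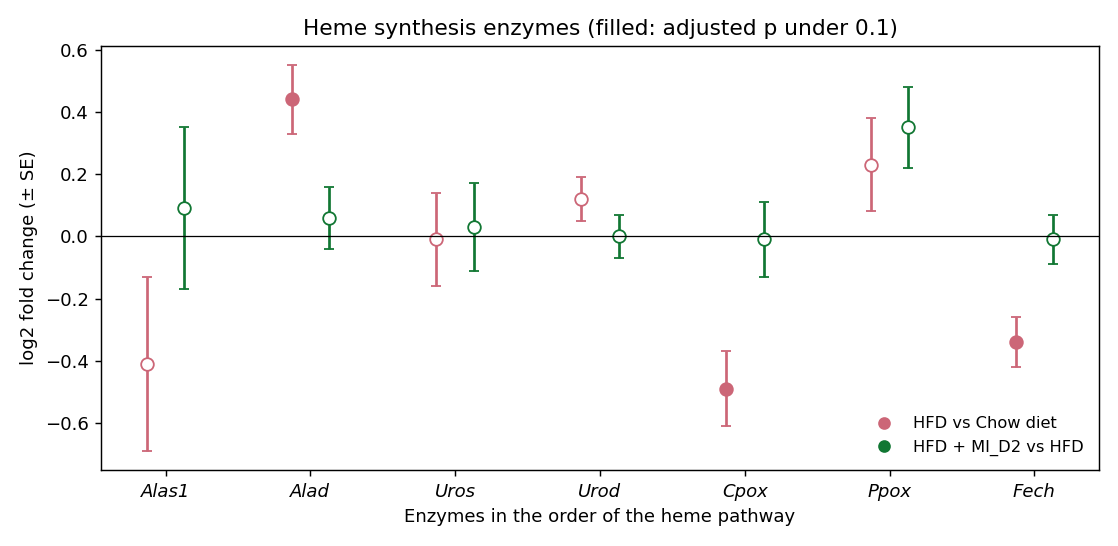
Log2 fold changes with SE (linear axis) of 7 heme synthesis enzymes in pathway order, over 37 libraries, for HFD against Chow diet (red) and HFD + MI_D2 against HFD (green). Filled points had an adjusted p under 0.1. In HFD, Alad lies above 0 and Cpox and Fech below it, and no green point is filled.

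The members were then set beside 5 lists of other iron and heme genes. The first holds genes that control hepcidin in hepatocytes, above all receptors and Smad proteins of the bone morphogenetic protein (BMP) pathway. Of 17 tested, 4 rose and 5 fell in HFD against Chow diet, beside 36.2% of all tested genes called. The median log2 fold change of the list was -0.02, where that of all tested genes was 0.01. Bmpr1a, a BMP receptor, had 18.13 ± 1.73 CPM in Chow diet and 12.83 ± 3.93 CPM in HFD (log2 fold change -0.50 ± 0.14, adjusted p = 0.00914 in edgeR). The Smad partner Smad4 had 10.54 ± 2.91 and 6.973 ± 1.80 CPM (-0.61 ± 0.19, adjusted p = 0.0141). Acvr2a, another receptor of the family, had 24.32 ± 1.38 and 20.15 ± 2.19 CPM (-0.27 ± 0.08, adjusted p = 0.0138). Over all 38 libraries these 3 had adjusted p-values of 0.214, 0.134 and 0.258. In that fit 1 gene of the list rose and 0 fell, beside 15.6% of all tested genes called. At MI_D2 against HFD, where 5.63% of all tested genes were called, 1 of 17 rose and 1 fell. Furin, a protease that processes prohepcidin, rose from 267 ± 46.9 to 341.1 ± 50.9 CPM (0.35 ± 0.11, adjusted p = 0.0716), and Acvr2a fell further, to 17.02 ± 2.55 CPM (-0.25 ± 0.08, adjusted p = 0.0874). Over all 38 libraries neither passed (adjusted p = 0.113 and 0.257), with log2 fold changes of 0.35 and -0.24.

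Of 12 other genes of iron uptake, storage and release, 3 rose and 2 fell in HFD against Chow diet, beside 36.2% of all tested genes called. Their median log2 fold change was -0.08. Slc39a14, a transporter of iron not bound to transferrin, had 177.3 ± 79.9 CPM in Chow diet and 118.9 ± 31.0 CPM in HFD (-0.58 ± 0.18, adjusted p = 0.014 in edgeR). Slc11a2, which carries ferrous iron across membranes, had 11.17 ± 2.04 and 8.97 ± 2.25 CPM (-0.33 ± 0.13, adjusted p = 0.0508). Mcoln1, a cation channel of lysosomes, rose from 36.21 ± 3.11 to 44.03 ± 11.2 CPM (0.29 ± 0.11, adjusted p = 0.0413). Over all 38 libraries Mcoln1 passed (adjusted p = 0.0589), and Slc39a14 and Slc11a2 did not (adjusted p = 0.188 and 0.262). At MI_D2 against HFD 0 of 12 were called, beside 5.63% of all tested genes. Of the 12, 1 had an unadjusted p under 0.05, beside 1692 of 9099 tested genes, and DESeq2 and limma called 0 of the 12.

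Of 23 genes of mitochondrial iron and iron-sulfur cluster assembly, 8 rose and 4 fell in HFD, beside 36.2% of all tested genes called. Their median log2 fold change was 0.14. The counts of this list moved with the treatment of library C105 and of length, as did the count of all tested genes. The list had 0 and 1 over all 38 libraries, beside 15.6% of all tested genes. With the length trend removed it had 3 and 3, beside 2875 of 9099 tested genes called. Ciao1, which helps to insert clusters into cytosolic proteins, had 23.73 ± 2.0 CPM in Chow diet and 17.77 ± 1.99 CPM in HFD (-0.42 ± 0.09, adjusted p = 0.00056 in edgeR). Its partner Ciao2b moved the other way, from 23.35 ± 4.44 to 30.66 ± 3.68 CPM (0.40 ± 0.09, adjusted p = 0.00167). Bola3, which acts late in mitochondrial cluster assembly, had 8.036 ± 1.08 and 11.91 ± 1.85 CPM (0.56 ± 0.12, adjusted p = 0.000699). None of these 3 passed over all 38 libraries (adjusted p = 0.184, 0.19 and 0.133). At MI_D2 against HFD, where 5.63% of all tested genes were called, 2 of 23 rose and none fell. These were Glrx5, a carrier of clusters (136.7 ± 15.1 CPM at MI_D2, 0.26 ± 0.08, adjusted p = 0.0584), and Iscu, their scaffold (48.09 ± 8.65 to 57.67 ± 9.71 CPM, 0.26 ± 0.09, adjusted p = 0.0979). Neither passed over all 38 libraries (adjusted p = 0.325 and 0.248), where both had a log2 fold change of 0.26.

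Of 11 heme synthesis genes other than the members, 1 rose (Alad) and 2 fell in HFD, beside 36.2% of all tested genes called. Their median log2 fold change was -0.01. Over all 38 libraries 0 rose and 1 fell, beside 15.6%. The 2 that fell were Cpox and Abcb10, a transporter of the inner mitochondrial membrane, which went from 9.032 ± 1.54 to 6.301 ± 1.07 CPM (-0.53 ± 0.13, adjusted p = 0.00228 in edgeR, and 0.0744 over all 38 libraries). At MI_D2 against HFD, where 5.63% of all tested genes were called, 1 of 11 rose. This was Tmem14c, a mitochondrial membrane protein needed late in heme synthesis, which rose from 13.04 ± 2.69 to 17.45 ± 2.80 CPM (0.42 ± 0.12, adjusted p = 0.038). It passed over all 38 libraries (adjusted p = 0.0663) but not with the length trend removed (adjusted p = 0.13).

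Of 12 genes of heme uptake, export and breakdown, 5 rose and none fell in HFD against Chow diet, with a median log2 fold change of 0.16, beside 36.2% of all tested genes called in either direction. Over all 38 libraries 2 of 12 rose, beside 15.6%. Hmox1, the inducible heme oxygenase that frees iron from heme, had 12.4 to 19.5 CPM in Chow diet livers (median 17.6) and 19.2 to 32.1 CPM in HFD livers (median 21.7). It rose with a log2 fold change of 0.52 ± 0.12 (adjusted p = 0.00117 in edgeR, and 0.00288 over all 38 libraries). At the 2 doses Hmox1 was lower than in HFD, with 13.1 to 24.9 CPM at MI_D1 (median 17.3) and 15.2 to 22.6 CPM at MI_D2 (median 19.2). The log2 fold change against HFD was -0.47 ± 0.11 at MI_D1 (adjusted p = 0.0924) and -0.37 ± 0.11 at MI_D2 (adjusted p = 0.0536). The adjusted p of Hmox1 over all 38 libraries was 0.124 at MI_D1 and 0.08 at MI_D2, with log2 fold changes of -0.47 and -0.37. Both doses share the HFD libraries with the comparison of HFD with Chow diet, and the 2 doses did not differ detectably in Hmox1 (0.11 ± 0.11, adjusted p = 1).

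Cd5l, a protein secreted by macrophages and counted both in this list and in the macrophage list, likewise rose in HFD and was lower at MI_D2. It went from 26.58 ± 2.15 CPM in Chow diet to 46.89 ± 11.2 CPM in HFD (0.82 ± 0.15, adjusted p = 0.00015 in edgeR, and 0.00331 over all 38 libraries) and fell to 31.76 ± 7.34 CPM at MI_D2 (-0.56 ± 0.14 against HFD, adjusted p = 0.0172, and 0.0458 over all 38 libraries). Hmox2, the constitutive heme oxygenase, rose from 68.27 ± 6.06 to 79.16 ± 3.88 CPM in HFD (0.21 ± 0.07, adjusted p = 0.0156), which did not pass over all 38 libraries (adjusted p = 0.245). Hebp1, a heme-binding protein, rose at MI_D2 from 208.3 ± 15.0 to 275 ± 35.7 CPM (0.40 ± 0.08, adjusted p = 0.00449, and 0.0424 over all 38 libraries). In all, 1 gene of the list rose and 2 fell at MI_D2 against HFD, where 5.63% of all tested genes were called. Macrophage markers, Cd5l among them, moved with Hmox1. Their summed level was 319 to 631 TPM at MI_D1 (median 355) and 293 to 501 TPM at MI_D2 (median 402), beside the median of 565 in HFD. At MI_D2 0 of 17 rose and 7 fell. Over all 38 libraries 2 fell, beside 244 of 9045 tested genes called there. At MI_D1 0 of 17 were called, beside 0.187% of all tested genes, and DESeq2 called 1 and limma 0. Of the 17, 13 had an unadjusted p under 0.05, beside 844 of 9099 tested genes. The part of macrophage markers in the changes of Hmox1 and Cd5l was not tested.

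At MI_D1 against HFD, where 0.187% of all tested genes were called, 0 genes were called in the other 4 iron and heme lists. Of these, 2 hepcidin control genes, 2 uptake and storage genes, 2 mitochondrial genes and 1 heme synthesis gene had an unadjusted p under 0.05. Of all tested genes 844 of 9099 had one. In these 4 lists DESeq2 and limma called 0.

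**Figure D4:**
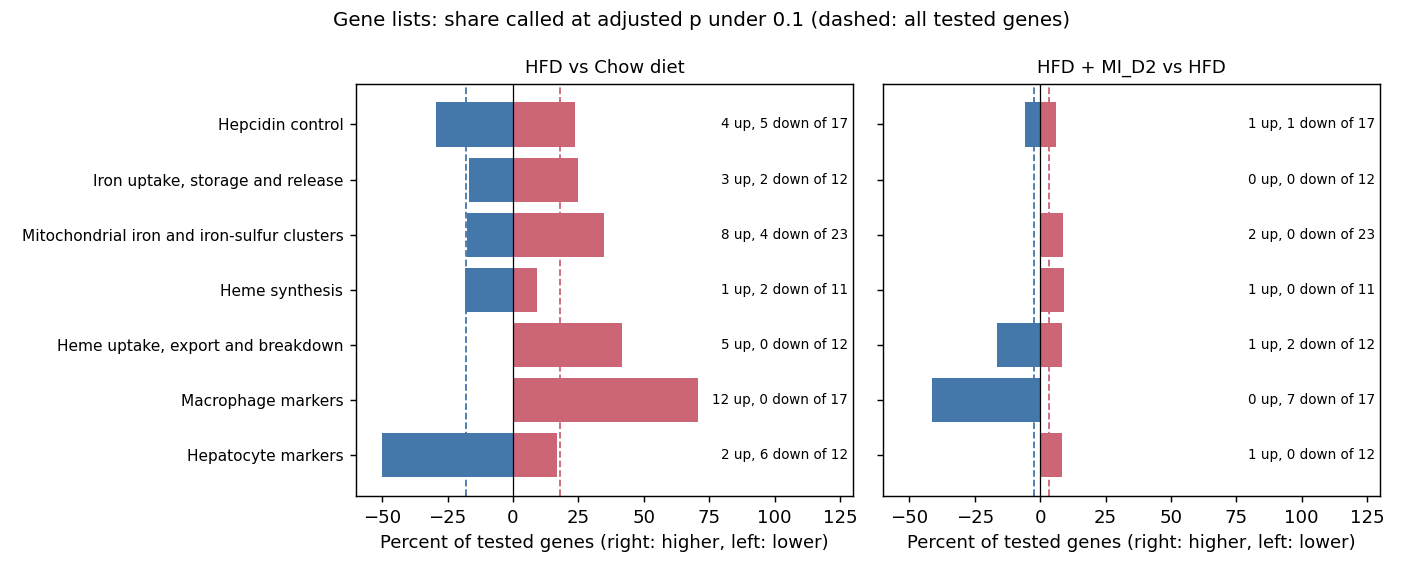
Percent of tested genes called in 5 iron and heme lists and 2 marker lists (linear axis, higher to the right and lower to the left) for HFD against Chow diet and HFD + MI_D2 against HFD, over 37 libraries. Dashed lines give the percent of all tested genes called in each direction, 18.1% and 18.1% on the left panel and 3.37% and 2.25% on the right. In HFD, 12 of 17 macrophage markers rose and 6 of 12 hepatocyte markers fell.

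Further marker lists gave the surroundings of these genes. The share of all tested genes called in HFD against Chow diet was 36.2%, and 15.6% over all 38 libraries. Of 11 acute phase genes, led by Hp (haptoglobin, which binds free hemoglobin) and Fgb (fibrinogen), 3 rose and none fell in HFD (1 rose over all 38 libraries). Their median log2 fold change was -0.14, and Hp (-0.01) and Fgb (-0.16) were not called. Their summed level was 16000 to 25300 TPM in Chow diet and 15700 to 24600 TPM in HFD. The inflammatory cytokine pathway that induces these genes also induces hepcidin. At MI_D2 against HFD 0 of 11 were called in edgeR, beside 5.63% of all tested genes. Of the 11, 4 had an unadjusted p under 0.05, beside 1692 of 9099 tested genes, and DESeq2 called 0 of the 11 and limma 3. Of 10 endothelial markers, led by Clec4g and Stab1, 2 rose in HFD and 2 fell at MI_D2 against HFD. Over all 38 libraries 0 rose in HFD and 1 fell at MI_D2, where 244 of 9045 tested genes were called. Of 9 stellate and fibroblast markers, led by Dcn and Col3a1, 0 rose and 1 fell in HFD. Of 4 cholangiocyte markers, led by Epcam and Krt19, 1 rose, and 0 over all 38 libraries. Of 3 lymphocyte markers, led by Gzma and Cd3d, 0 were called in HFD, with 0 at an unadjusted p under 0.05 and 0 by DESeq2 and limma. Of the red cell list, Gypc was the gene tested and did not pass (0.33 ± 0.18, adjusted p = 0.165).

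The genes whose levels ran most like those of the members are given as a description. They were taken over 37 libraries that differ in diet, dose and depth and were scaled together. Aco1 ran most like Gbe1, the glycogen branching enzyme, with a Pearson r of 0.918 (Spearman's rho 0.871), and Adipor2, an adiponectin receptor, with an r of 0.898 (rho 0.842). Within groups the r was 0.814 and 0.756. Fech ran most like Ugt2a3, a glucuronosyltransferase, with an r of 0.882 (rho 0.825), and Suclg2, a subunit of succinyl-CoA ligase, with an r of 0.873 (rho 0.833), and within groups the r was 0.783 and 0.799. Tfr2 ran most like Pepd, a dipeptidase, with an r of 0.929 (rho 0.929), and Aldh16a1, of the aldehyde dehydrogenase family, with an r of 0.913 (rho 0.913), and within groups the r was 0.897 and 0.878. Each member was compared with 9097 genes.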

How the data were processed

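Liver RNA of 38 libraries was analysed, all 38 columns being matched to labelled samples. Reads had been quantified by kallisto against MesAur1.0, and estimated counts summed to gene symbols, without normalization, were deposited by the authors. They also deposited TPM, which divide the counts by transcript length and total. Reads of near-identical genes may be shared out between them. Estimated counts were rounded, filtered with filterByExpr on the 4 groups, scaled by TMM and entered, all groups in 1 fit with a coefficient for each, into the quasi-likelihood test of edgeR 4.0.16 (R 4.3.3). Benjamini-Hochberg adjustment ran over all 9099 tested genes, called at an adjusted p under 0.1, the study's threshold. An SE is the absolute log2 fold change over √F, and intervals are 95%.

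The study's methods do not name the control library they filtered out, and library C105 was taken as that library from earlier results of these data. Gene length is the ratio of estimated counts to TPM, relative to the median gene. Principal components used log2 CPM with a prior count of 2.

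The members and the 13 lists (5 of iron and heme genes, and markers of red cells, acute phase, macrophages, hepatocytes, endothelium, stellate cells and fibroblasts, lymphocytes and cholangiocytes) were chosen with earlier results of these data known. The lists share 6 genes. Named are all members, up to 3 called genes of each iron and heme list with the smallest adjusted p (HFD vs Chow diet, MI_D2 vs HFD), up to 2 of the highest genes of each marker list, and the 2 genes most like each of the 3 members with the smallest adjusted p. Hmox1 at MI_D1 and the enzyme Ppox were named after their values were seen. Some genes that the rule or the lists would give are not reported here and were taken out of the lists.

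Alternatives were all 38 libraries, DESeq2 1.42.0, RLE size factors, no filter, only the groups compared, each library's length trend (lowess span 0.3) as an offset, limma 3.58.1 on log2(TPM + 1) and log2(TPM + 0.1), a threshold of 0.05, and each of 37 libraries left out. All 38 libraries with the length trend removed was added after seeing the data. No pair of libraries of a group agreed within sampling noise (lowest chi-square per degree of freedom 6.71).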

Additional observations from a re-analysis of the deposited data

Results flagged for a closer look

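Of 30 groups of libraries tested for a value far from the others (6 members in each group, the Chow diet group also with library C105), 2 were flagged, both through Chow diet library C105. Chance flags about 1 in 20 such groups. Gaps and ranges were taken on the log2 scale of CPM. For Fth1, the gap between library C105 (8518 CPM) and the next Chow diet library (4144 CPM) was 0.593 of the group's log2 range. The critical value for 9 libraries is 0.493. For Fech, the gap between library C105 (57.72 CPM) and the next (88.6 CPM) was 0.54 of the log2 range, above the same critical value. These values were not weighed further, and the results with and without this library stand beside each comparison with the Chow diet group.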

How the results depend on the processing

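Of 36 values (6 members in 6 comparisons), 12 were called. Of these, 6 were called under every alternative and with any of the 37 libraries left out, and the 24 that were not called were never called. No called value changed direction. The 4 members changed in HFD against Chow diet became 2 with all 38 libraries and 2 with all 38 libraries and the length trend removed (chosen after seeing the data). The 4 members changed at MI_D1 against Chow diet became 1 with all 38 libraries and 2 with all 38 libraries and the length trend removed. The other counts of called members stayed within 1.5 times their main value. Fth1 lost its call in all 3 comparisons with Chow diet with all 38 libraries, with the length trend removed and with both. Tfr2 lost it in HFD and at MI_D1, and Fech at MI_D1, with all 38 libraries. The cause was not tested. No paired analysis was possible because the libraries are numbered once through all groups. The 95% intervals of Alas1, whose animals spread most, limit what could be seen of it, while counts were at least 211 for every member.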
